A study of Mus musculus with 6 samples.

Results

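*Chil1*, *Chil3*, *Chil4*, *Chid1*, *Ctbs* and *Retnla* were examined in IL-4-treated bone marrow-derived macrophages (BMDMs), as 6 genes of the 24445 genes with a row in the count table. They were chosen by name as the chitinase-like proteins, their more distant relatives and the resistin-like gene that is read beside them. Each gene is represented by its most abundant row. The choice was made with the difference between genotypes known, in particular that of *Chil4*. The differences between genotypes in these 6 genes and the ratios between paralogs are therefore given as a description, without a p-value.

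The 6 libraries were made from BMDMs of female C57Bl/6J mice in which exon 9 of *Acly* is flanked by loxP sites on both alleles (Acly fl/fl), so the floxed allele is common to both groups. The AclyM-KO mice, with 3 libraries, also carried Cre under the control of *Lyz2*, a gene of myeloid cells, and the littermate controls (Ctrl), with 3 libraries, did not. *Acly* encodes ATP citrate lyase, which makes cytosolic acetyl-CoA. Bone marrow precursors were grown for 7 days in L929-conditioned medium and then given IL-4 (100 U/mL) for 24 h. The age of the mice is not given in the sources used here, and naive macrophages were not analysed here. The replicates are called biological in the study's statistics section and technical, from 3 pooled mice, in a figure legend. P-values thus measure the spread between these libraries, which may be technical. On the kept rows, 14739689, 12151975 and 13074469 reads were counted for Ctrl replicates 1 to 3 and 14787741, 15587283 and 14745614 for AclyM-KO replicates 1 to 3, the order used throughout. Ctrl replicate 2 was the smallest library.

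Chitinases of glycosyl hydrolase family 18 cut chitin, a polymer of N-acetylglucosamine that mammals do not make. Chitinase-like proteins share the fold but have lost the catalytic residues. *Chil3* (Ym1) and *Chil4* (Ym2) encode such secreted proteins of mouse macrophages and epithelia, and *Chil1* encodes the mouse counterpart of human CHI3L1. *Chid1* encodes a related secreted and lysosomal protein (SI-CLP), and *Ctbs* encodes chitobiase, a lysosomal enzyme that removes N-acetylglucosamine from the core of N-glycans. *Retnla* (RELMα, Fizz1) belongs to another family, the cysteine-rich resistin-like proteins. In macrophages, IL-4 acts through the transcription factor STAT6 to induce *Chil3* and *Retnla*, and both serve as markers of IL-4 activation in the mouse.

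The positions of the genes are those of GENCODE M21 on GRCm38, which is the mm10 build the authors aligned to. *Chil3* (chr3:106147554-106167564) and *Chil4* (chr3:106201490-106219507) lie side by side on the minus strand with 11 exons each. *Chil1* (chr1:134182176-134190181, 10 exons), *Ctbs* (chr3:146449795-146465849, 7 exons) and *Retnla* (chr16:48842551-48844461, 4 exons) are on the plus strand, and *Chid1* (chr7:141493136-141539857, 13 exons) is on the minus strand. *Chid1* and *Ctbs* each had 2 rows with identical counts, and the other genes had 1 row.

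*Chil3* and *Chil4* are near-identical paralogs, so how well reads can separate them bears on every value of *Chil4*. Their transcripts of 1539 bases each were identical in 94.3% of aligned positions, with 86 mismatches. Of all 50-base windows of the *Chil4* transcript, 20.4% occurred unchanged in another gene, namely *Chil3* or the pseudogene *Gm6522*. This share was 9.76% for windows of 75 bases and 3.75% for windows of 100 bases. For *Chil3* the shares were 29.4%, 14.2% and 5.42%. The longest stretch without a difference was 136 bases. The read length and the treatment of reads that fit several places are not given in the sources used here. A stretch of exon 6 with 10 differences in 60 coding bases is shown because it is among the parts that tell the paralogs apart. It lies at chr3:106155714-106155773 in *Chil3* and at chr3:106206041-106206100 in *Chil4*, both read on the minus strand of GRCm38 from GENCODE M21, and capitals mark the bases that differ.
Chil3: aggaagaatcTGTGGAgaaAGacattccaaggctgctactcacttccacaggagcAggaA
Chil4: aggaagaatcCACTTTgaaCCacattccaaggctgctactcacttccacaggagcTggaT

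**Figure D1:**
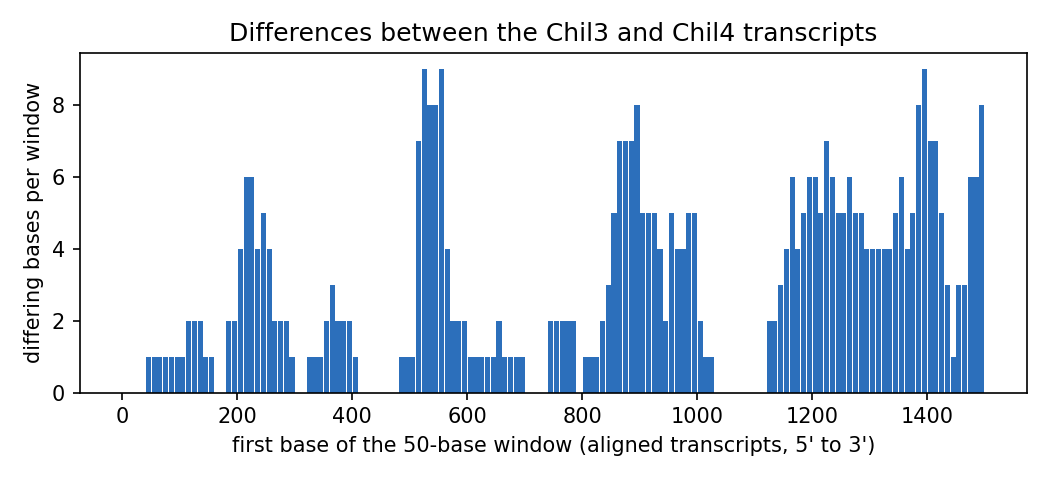
Number of differing bases (vertical axis) in 50-base windows along the aligned Chil3 and Chil4 transcripts, by the first base of the window (horizontal axis, 5′ to 3′). Windows with many differences alternate with stretches that have none, the longest of which is 136 bases.

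The other members could be told apart from their relatives. Over the coding sequence, *Chil3* and *Chil4* were 94.4% identical, whereas *Chil3* was 53.7% identical to *Chil1* and 71.0% to *Chil5*, a neighbouring family member. *Retnla* was 71.3% identical to *Retnlg*, 56.8% to *Retnlb* and 49.9% to *Retn*. No 50-base window of the *Retnla* or *Chil1* transcript occurred in another gene. *Chid1* and *Ctbs* overlap *Tspan4* and *Spata1* on the opposite strand with 6.9% and 5.8% of their exonic bases. The libraries are strand-specific, but whether the counting used strand is not given in the sources used here, so these genes may share a small part of their counts.

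The 250 bases before the RefSeq transcription start (GRCm38.p6) are shown for *Chil4*, *Chil3* and *Retnla*, of the 6 genes the one that differed most between genotypes and the IL-4 marker genes to which it was compared. Capitals mark matches on either strand to TTCNNNGAA or TTCNNNNGAA, the palindromes bound by STAT proteins, of which STAT6 is known for the longer one. The *Chil4* window is chr3:106219480-106219729 and the *Chil3* window is chr3:106167565-106167814, both on the minus strand. The *Retnla* window is chr16:48842359-48842608 on the plus strand.
Chil4: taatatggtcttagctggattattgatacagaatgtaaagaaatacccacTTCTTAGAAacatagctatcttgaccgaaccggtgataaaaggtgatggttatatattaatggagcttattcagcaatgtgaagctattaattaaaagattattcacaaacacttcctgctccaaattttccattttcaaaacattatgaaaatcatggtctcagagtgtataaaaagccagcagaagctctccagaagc
Chil3: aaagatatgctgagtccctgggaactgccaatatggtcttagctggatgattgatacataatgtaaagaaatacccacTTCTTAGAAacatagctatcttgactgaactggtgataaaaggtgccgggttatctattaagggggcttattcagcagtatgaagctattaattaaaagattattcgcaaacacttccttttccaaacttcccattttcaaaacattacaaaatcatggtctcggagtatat
Retnla: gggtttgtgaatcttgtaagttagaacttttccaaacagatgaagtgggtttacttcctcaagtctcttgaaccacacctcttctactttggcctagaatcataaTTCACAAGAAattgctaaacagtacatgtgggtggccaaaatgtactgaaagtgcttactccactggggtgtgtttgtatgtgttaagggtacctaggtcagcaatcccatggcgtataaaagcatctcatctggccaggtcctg

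The windows of *Chil3* and *Chil4* were offset by 28 bases because their annotated starts differ, and the overlapping 223 aligned positions were 90.1% identical. Both held the same match to TTCNNNGAA, TTCTTAGAA, which began 200 bases before the start of *Chil4* and 172 bases before that of *Chil3*. *Retnla* held TTCACAAGAA, a match to TTCNNNNGAA, beginning 145 bases before its start. TATAAA was found in the windows of *Chil4* and *Retnla* at 31 and 30 bases before the start, and TTGCNNAA, a C/EBP-like motif, began at 131 and 134 bases. These letters were searched on both strands, and none of the matches overlapped another. The *Chil3* window ended inside the stretch that aligns with TATAAA of *Chil4*, so the search could not show whether *Chil3* holds it. Among 32817 promoter windows of the same length, 5.851% held TTCNNNNGAA, 7.015% TTCNNNGAA, 9.571% TTGCNNAA and 12.372% TATAAA. All 6 genes were matched by symbol. The *Chil1*, *Ctbs* and *Chid1* windows, 3 of them for *Chid1*, held none of the 4 motifs. For some genes the RefSeq start differs from that of GENCODE M21. The *Ctbs* window, chr3:146450217-146450466, lies inside the gene as GENCODE M21 places it. The windows of *Retnla*, *Chil4* and *Chid1* reach past the GENCODE start into the gene. A match is a description of the sequence and does not show that a factor binds there.

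The knockout could be read from the counts. The *Acly* counts were 4917, 3925 and 4606 in Ctrl, against 2140, 2078 and 1978 in AclyM-KO. On the log2 scale, AclyM-KO minus Ctrl was -1.27 with a standard error (SE) of 0.0533 (edgeR adjusted p = 5.22e-10). All AclyM-KO libraries were below all Ctrl libraries. Reads from all exons are counted, including those that the deletion leaves in place. All 8 macrophage marker genes were expressed, with summed levels of 14710, 13399 and 13847 CPM (counts scaled to library size) in Ctrl and 11088, 11194 and 11539 CPM in AclyM-KO. *Lyz2*, the gene that drives Cre, accounted for 7121, 6092 and 6573 CPM of these sums in Ctrl and for 4004, 4222 and 4201 CPM in AclyM-KO.

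The members differed widely in level. Scaled to library size and transcript length (CPM per kb), *Retnla* had 3456 ± 204 in Ctrl and 3187 ± 159 in AclyM-KO (SD, n = 3 each). By mean CPM it was number 44 of all genes. *Chil3* followed with 269 ± 41.4 and 263 ± 4.29 CPM per kb, then *Chid1* with 18 ± 1.52 and 18.7 ± 0.804. Next came *Ctbs* with 9.10 ± 0.837 in Ctrl and 10.4 ± 0.353 in AclyM-KO. In Ctrl, *Chil4* was below all of these with 0.675 ± 0.0617 CPM per kb, and *Chil1* was the lowest with 0.192 ± 0.0680. No neighbours in this order overlapped between libraries in Ctrl. In AclyM-KO, *Chil4* reached 11.1 ± 0.765 CPM per kb, and its libraries (10.5, 10.8 and 12) overlapped those of *Ctbs* (10.4, 9.99 and 10.7). The order of these genes in AclyM-KO could thus not be told apart beyond the spread.

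**Figure D2:**
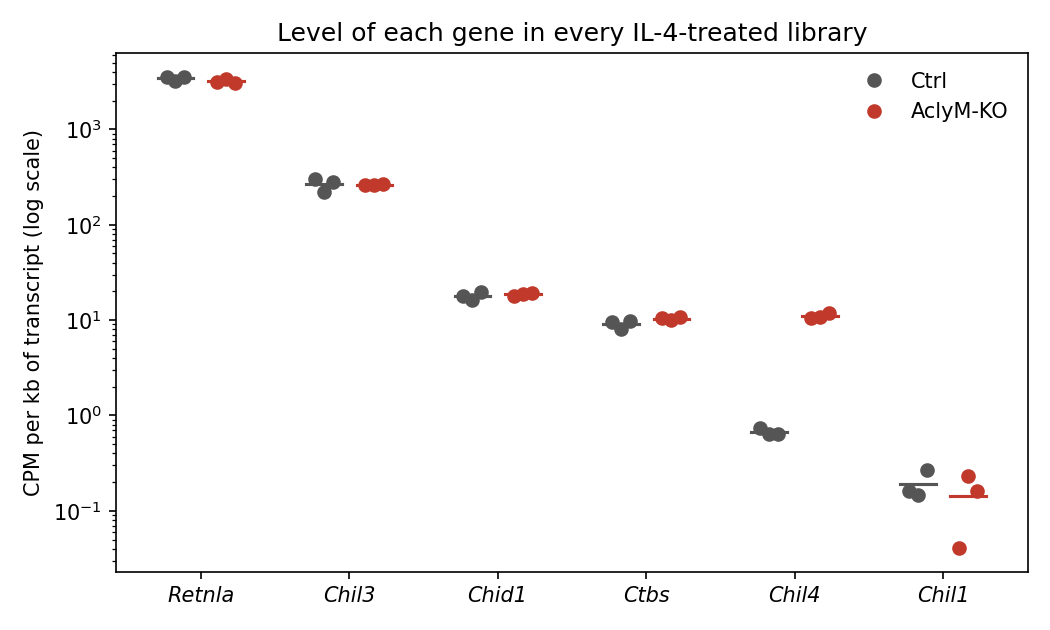
Level of each gene in CPM per kb of transcript (vertical axis, log scale) in the 3 Ctrl (grey) and 3 AclyM-KO (red) libraries. Points are libraries and lines are group means. Chil4 moves from 0.675 in Ctrl to 11.1 in AclyM-KO, beside Ctbs, whereas the groups overlap for Retnla and Chil3.

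Of the 6 genes, 5 passed the filter on low counts and *Chil1* did not. Over all 12023 genes that passed, the libraries of the groups did not overlap for 40.2% (20.5% higher and 19.8% lower in AclyM-KO), and 7.84% lay past 0.58 on the log2 scale on either side. Among the members that passed, the groups did not overlap for 2 (*Chil4* and *Ctbs*), both higher in AclyM-KO, and 1 (*Chil4*) lay past 0.58. As the genes were chosen with this contrast known, these counts are a description only. In bulk RNA, a change in the level per cell and a change in the share of cells that express a gene cannot be told apart.

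Reads on *Chil4* numbered 17, 12 and 13 in Ctrl, against 238, 258 and 269 in AclyM-KO. Scaled to library size this was 1.15, 0.982 and 0.987 CPM in Ctrl and 16.2, 16.6 and 18.4 CPM in AclyM-KO. Every AclyM-KO library was far above every Ctrl library, and the libraries within a group were close to each other. The log2 fold change was 4.02 (SE 0.169), which corresponds to 16.2-fold. Whether misplaced *Chil3* reads make up part of the few Ctrl counts was not tested. This fold and the paralog ratio given below depend on it. Only 1 of the genes tested, *Aqp1*, had a larger fitted increase, from 0, 1 and 2 to 27, 24 and 40 counts. Leaving out any single library gave values between 3.96 and 4.10.

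For *Chil3*, the far more abundant paralog, the counts were 6877, 4194 and 5751 in Ctrl, against 5867, 6241 and 6016 in AclyM-KO. The CPM values were 465, 343 and 436 in Ctrl and 400, 402 and 412 in AclyM-KO. The AclyM-KO libraries fell inside the range of the Ctrl libraries, of which replicate 2 was the lowest. The coefficient of variation was 15.3% in Ctrl and 1.63% in AclyM-KO. The log2 fold change was -0.036 (SE 0.0793). It turned to 0.051 without Ctrl replicate 1, so its sign rested on that library, and it was -0.16 without Ctrl replicate 2.

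Within a library, the ratio of the paralogs does not depend on library size. *Chil4* made up 0.247%, 0.285% and 0.226% of the counts of the pair in Ctrl, with 95% Wilson intervals of 0.154% to 0.395%, 0.163% to 0.498% and 0.132% to 0.386%. In the AclyM-KO libraries it made up 3.90%, 3.97% and 4.28%, with intervals of 3.44% to 4.41%, 3.52% to 4.47% and 3.81% to 4.81%. The intervals cover counting error only. The intervals of the 3 Ctrl libraries overlapped each other, as did those of the 3 AclyM-KO libraries, and none overlapped across genotypes. Per 1000 *Chil3* counts there were 2.53 ± 0.305 *Chil4* counts in Ctrl and 42.2 ± 2.21 in AclyM-KO (SD, n = 3 each), a ratio of means of 16.7. Leaving out any single library moved this ratio to between 15.8 and 17.8. *Chil4* remained the minor paralog in both genotypes.

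**Figure D3:**
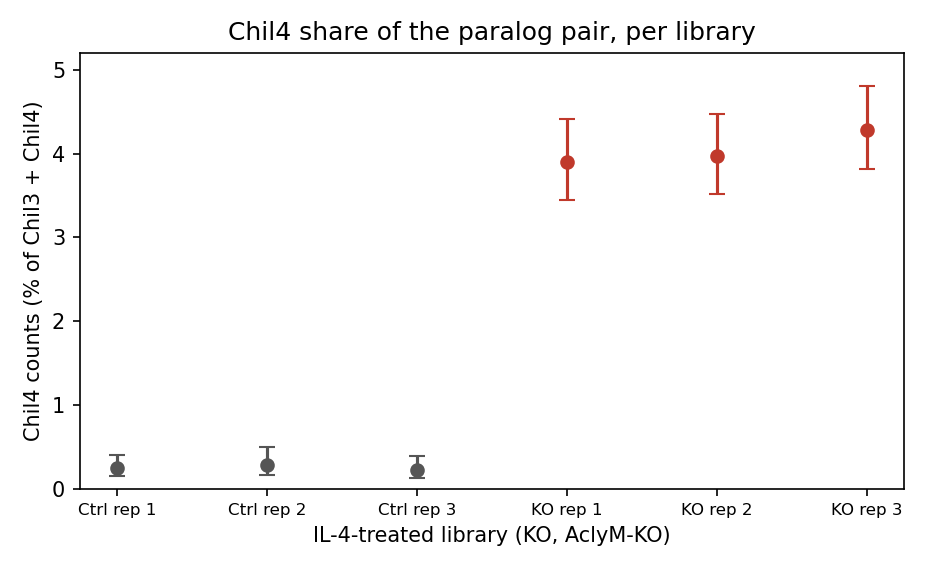
Chil4 counts as a percentage of Chil3 and Chil4 counts together (vertical axis) in each library. Points are libraries, error bars are 95% Wilson intervals, grey is Ctrl and red is AclyM-KO. All Ctrl libraries lie at 0.285% or less and all AclyM-KO libraries at 3.90% or more.

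*Chil1* was hardly detected, at 4, 3 and 6 reads in Ctrl against 1, 6 and 4 in AclyM-KO. The groups overlapped, and no difference was detectable at this depth. The gene was left out by the filter on low counts, so no fold change is given.

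The more distant relatives differed little. The *Chid1* counts were 1132, 848 and 1083 in Ctrl, against 1099, 1250 and 1185 in AclyM-KO, or 76.5, 69.4 and 82.2 against 75, 80.4 and 81.2 CPM. The groups overlapped, and the log2 fold change was 0.052 (SE 0.0626). It fell just below 0, to -0.012, without Ctrl replicate 2. The *Ctbs* counts were 406, 288 and 369 in Ctrl, against 442, 449 and 451 in AclyM-KO, or 27.4, 23.6 and 28 against 30.2, 28.9 and 30.9 CPM. All AclyM-KO libraries were above all Ctrl libraries here, but by a small margin, at 0.18 on the log2 scale (SE 0.0807). Without Ctrl replicate 2, the lowest library, this was 0.11. The overlapping gene on the opposite strand, *Spata1*, had a log2 fold change of 0.17 (edgeR adjusted p = 0.113), and *Tspan4*, which overlaps *Chid1*, had one of 0.10 (edgeR adjusted p = 0.388). There were 2.89 ± 0.0876 *Chid1* counts per *Ctbs* count in Ctrl and 2.63 ± 0.149 in AclyM-KO (SD, n = 3 each). This ratio narrowly did not overlap between genotypes, at 2.79 to 2.94 in Ctrl and 2.49 to 2.78 in AclyM-KO.

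The *Retnla* counts were 31739, 23585 and 28147 in Ctrl, against 27804, 31245 and 26569 in AclyM-KO. The CPM values were 2144, 1929 and 2136 in Ctrl and 1897, 2010 and 1821 in AclyM-KO. AclyM-KO replicate 2 was above Ctrl replicate 2, so that the groups overlapped. The log2 fold change was -0.12 (SE 0.0459). It ranged from -0.17, without Ctrl replicate 2, to -0.084, without AclyM-KO replicate 3. Per *Chil3* count there were 4.62, 5.62 and 4.89 *Retnla* counts in Ctrl and 4.74, 5.01 and 4.42 in AclyM-KO. This ratio of the IL-4 marker genes overlapped between genotypes.

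The rest of both families was at or near 0 counts. *Chia1* and *Chit1*, which encode the active chitinases of mice, had at most 2 counts in any library, as did *Chil6*. *Chil5* was at 5, 3 and 1 reads in Ctrl against 5, 4 and 1 in AclyM-KO, and *Ovgp1*, the oviduct glycoprotein gene, had 5, 1 and 0 against 4, 3 and 1. *Retn* (resistin) and *Retnlb* had 0 counts in all 6 libraries, and *Retnlg* had 4, 0 and 0 against 2, 3 and 1. None of these 8 genes passed the filter on low counts. A count of 0 allows up to 3 counts per library.

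The chromosomal neighbours of *Chil4* were compared because the family forms a cluster there. Within 250 kb, *Atp5pb*, a subunit gene of ATP synthase, and *Wdr77* were the only other genes besides *Chil3* that passed the filter. *Atp5pb* was at 96.8 ± 7.26 CPM in Ctrl against 115 ± 3.52 CPM in AclyM-KO (SD, n = 3 each), without overlap (log2 fold change 0.25, edgeR adjusted p = 0.0059), and *Wdr77* had a log2 fold change of 0.12 (edgeR adjusted p = 0.295). *Chil3* is 33.9 kb from *Chil4*, *Chia1* 69.4 kb on the same side and *Chil6* 167.9 kb on the other. The tested neighbours of *Chil4* thus lay within 0.58 of no change. Around all 6 members, 32 other genes were tested, with a median log2 fold change of 0.085. A gene was called where edgeR gave an adjusted p below 0.05 and the change exceeded 0.58 on the log2 scale. In total, 5.55% of all genes were called, 2.98% higher and 2.57% lower. Of the 32 neighbours, 1 was called lower and 0 higher by edgeR. DESeq2 and limma-voom also called 0 higher, and edgeR gave 8 an unadjusted p under 0.05 on that side. The called gene was *Ppfia4*, which encodes a liprin, 106.8 kb from *Chil1* (-0.74, edgeR adjusted p = 0.00427), and the call was lost when edgeR's glmTreat required a change larger than 0.58 beyond its error.

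**Figure D4:**
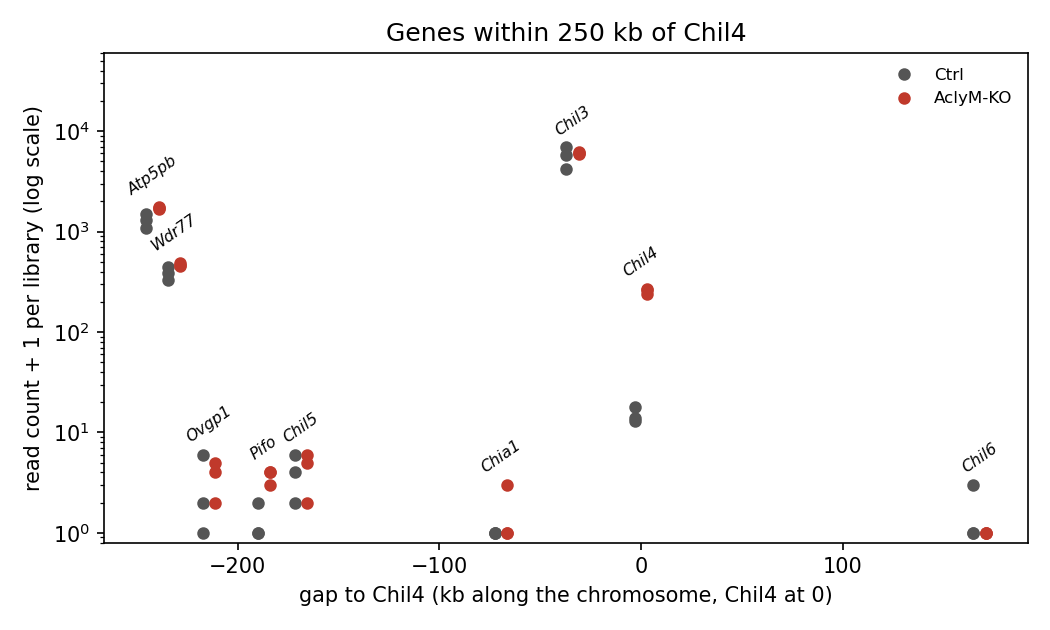
Read count plus 1 per library (vertical axis, log scale) of the genes within 250 kb of Chil4, by the gap to Chil4 along the chromosome in kb (horizontal axis), in Ctrl (grey) and AclyM-KO (red) libraries. Counts are not scaled to library size. Chil4 itself separates by genotype, from 12 to 17 up to 238 to 269 counts, while Chil3, 33.9 kb away, overlaps.

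Around these genes, 7 described receptors and partners of chitinase-like proteins were listed. *Il13ra2*, a receptor chain for CHI3L1, had 0 counts in all libraries, and *Ager* did not pass the filter. Of the 5 tested genes, 0 were called by edgeR, DESeq2 or limma-voom, and 2 had an unadjusted edgeR p under 0.05. *Lgals3* (galectin-3) was at 6530 ± 130 CPM in Ctrl and 7117 ± 14.9 in AclyM-KO (SD, n = 3 each), or 0.12 on the log2 scale (edgeR adjusted p = 0.00288). *Cd44*, at 0.018 on the log2 scale (edgeR adjusted p = 0.819), showed no detectable difference. *Stab1*, whose product stabilin-1 sorts SI-CLP to lysosomes, had a log2 fold change of 0.15 (edgeR adjusted p = 0.0731).

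The pathway of *Ctbs*, the breakdown of glycoproteins in lysosomes, held no called gene. Of its 13 other genes, all were tested and 0 were called by edgeR, DESeq2 or limma-voom, while 6 had an unadjusted edgeR p under 0.05. The median log2 fold change was -0.066, against 0.0014 for all genes tested. The lysosomal alpha-mannosidase gene *Man2b1* (-0.23, edgeR adjusted p = 0.00102) and the beta-mannosidase gene *Manba* (-0.21, edgeR adjusted p = 0.00541) were lower within the fold change limit. *Ctsa*, the most abundant, was at -0.10 (edgeR adjusted p = 0.036), and *Hexa* at -0.026 (edgeR adjusted p = 0.681). In the hexosamine pathway, which makes and salvages the sugar unit of chitin and N-glycans, 11 of 12 genes were tested and 0 were called by the 3 tools, with 6 at an unadjusted edgeR p under 0.05. Its median was 0.073, and *Nagk*, the N-acetylglucosamine kinase gene, was higher within the limit (0.35, edgeR adjusted p = 9.26e-05), while *Gnpda2*, a glucosamine-6-phosphate deaminase gene, was lower (-0.33, edgeR adjusted p = 0.0165). *Oga*, the most abundant, was at 0.11 (edgeR adjusted p = 0.115), and *Renbp*, the renin-binding protein gene, at 0.21 (edgeR adjusted p = 0.00726).

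Of 18 tested regulators of *Chil3* and *Retnla*, such as the IL-4 receptor chains, their kinases and transcription factors, 2 were called lower and 0 higher, with a median of -0.115, and DESeq2 and limma-voom also called 0 higher. *Kdm6b*, which encodes a histone H3K27 demethylase, fell to 15.1 ± 2.00 CPM against 29.0 ± 3.23 in Ctrl (SD, n = 3 each, -0.94 on the log2 scale, edgeR adjusted p = 1.31e-05). *Il13ra1*, a receptor chain for IL-13 and IL-4, was called at -0.67 (edgeR adjusted p = 0.0295), but the call was lost with DESeq2 (adjusted p = 0.0686) and when any single library other than Ctrl replicate 2 was left out (edgeR adjusted p between 0.0648 and 0.101). *Jak1* (-0.11, edgeR adjusted p = 0.0901) and *Jak2* (0.26, edgeR adjusted p = 0.0013) encode kinases of cytokine receptors and were the most abundant over all 6 libraries. In Ctrl alone, *Stat6* (261 ± 3.53 CPM) was above *Jak2* (235 ± 8.67 CPM, SD, n = 3 each). *Stat6* itself was at -0.12 (edgeR adjusted p = 0.0689). In all, 10 of the 18 genes had an edgeR adjusted p under 0.05 at any fold change, as did 24.9% of all genes tested. Within the limit of 0.58, the transcription factor genes *Egr2* (-0.48, edgeR adjusted p = 3.39e-05) and *Irf4* (-0.39, edgeR adjusted p = 0.00107) and the kinase gene *Jak3* (-0.36, edgeR adjusted p = 0.00134) were lower, and *Klf4*, another transcription factor gene, was higher (0.48, edgeR adjusted p = 9.71e-05).

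Of the 17 other IL-4 marker genes tested, 8 were called lower and 0 higher by edgeR, DESeq2 and limma-voom alike, with a median of -0.59, and 4 of the calls were left with glmTreat. At any fold change, 11 had an edgeR adjusted p under 0.05, 10 lower and 1 higher, against 24.9% of all genes tested. The higher one was the lectin gene *Clec10a* (0.31, edgeR adjusted p = 0.00031). *Ocstamp*, a gene of macrophage fusion (-1.31), the chemokine gene *Ccl22* (-1.07) and *Cish*, a feedback inhibitor of cytokine signalling (-0.80), were among those called lower (edgeR adjusted p = 8.17e-06, 8.87e-05 and 2.19e-07). Without Ctrl replicate 2, the calls of *Cdh1* (-0.57), *Flt1* (-0.49) and *Mgl2* (-0.55) were lost. *Mrc1*, the most abundant, was at -0.027 (edgeR adjusted p = 0.655), and the lectin gene *Clec7a* at -0.034 (edgeR adjusted p = 0.535). *Chil3* and *Retnla*, with -0.036 and -0.12, lay nearer to *Mrc1* than to these called genes.

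**Figure D5:**
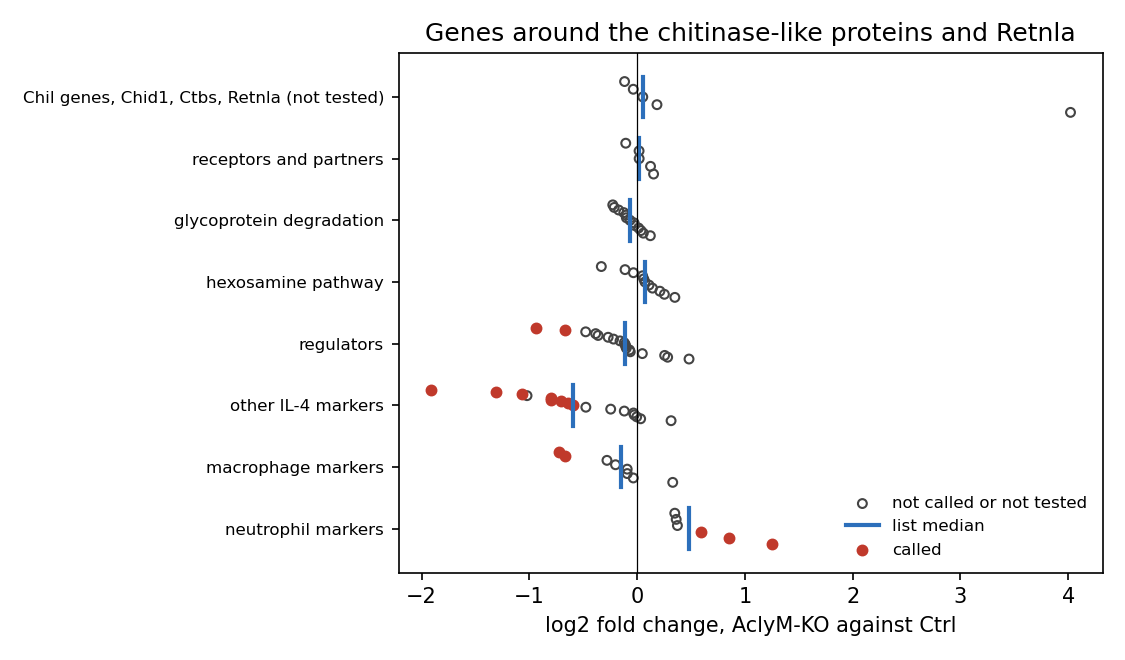
Log2 fold change of AclyM-KO against Ctrl (horizontal axis) for the genes of each list that passed the filter (rows). Filled red points are called genes, open points are not called or, in the first row, not tested, and blue lines are list medians. Chil4, at 4.02, lies apart from the other points, and among the 8 lists drawn the other IL-4 markers have the lowest median, -0.59.

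*Chil3*, *Chil4* and their relatives are also expressed by cells other than macrophages, so markers of such cells were read in the same libraries. Of 13 neutrophil markers, 6 were tested and 3 were called higher, with 0 lower by edgeR, DESeq2 or limma-voom, and 1 call was left with glmTreat. Their summed level was 35.7, 36.9 and 38.2 CPM in Ctrl and 71.9, 66.6 and 66.3 CPM in AclyM-KO. The most abundant was *Mmp8*, a collagenase gene, with 16.1, 15.2 and 19.4 CPM in Ctrl and 42.0, 38.5 and 39.7 in AclyM-KO (log2 fold change 1.25, edgeR adjusted p = 1.61e-07). *S100a8* (0.85, edgeR adjusted p = 0.00257) and *S100a9* (0.59, edgeR adjusted p = 0.0152) were the others. The call of *S100a9* was lost without Ctrl replicate 3 (0.42). The granule genes *Ngp* (0.37, edgeR adjusted p = 0.108), *Ltf* (0.35, edgeR adjusted p = 0.206) and *Lcn2* (0.36, edgeR adjusted p = 0.356) were not called. All 6 tested markers had a log2 fold change above 0, with a median of 0.48. For 5 of them every AclyM-KO library was above every Ctrl library, as for 20.5% of all genes tested. The granule genes *Elane*, *Mpo*, *Prtn3*, *Ctsg* and *Camp* and the neutrophil genes *Cebpe* and *Ly6g* had 8 counts or fewer in every library. The sum thus moved with *Chil4*, and its part in the *Chil4* difference was not tested.

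Markers of further cell types were read in the same way. Epithelial *Krt18* and *Krt19* had 0 counts in all libraries, and *Epcam* and *Krt8* had at most 3 in any. The remaining marker of that list, *Cdh1*, is also an IL-4 marker and was called lower (-0.80, edgeR adjusted p = 0.00424), so that the summed level was 9.32, 16.4 and 11.8 CPM in Ctrl and 6.89, 8.24 and 6.51 in AclyM-KO. Of the eosinophil markers, *Prg3* and *Il5ra* were at 0 and *Epx* had 1 count in a single library. *Ccr3* was the most abundant with 19.1, 24.9 and 19.5 CPM against 24.9, 20.2 and 18, and neither it nor *Siglecf* was called. Of the basophil and mast cell markers, *Mcpt8*, *Fcer1a* and *Ms4a2* were at 0, while *Kit* was called higher (1.26, edgeR adjusted p = 1.65e-04), at 2.36, 3.19 and 4.02 CPM in Ctrl and 8.12, 7.78 and 6.92 CPM in AclyM-KO. *Cpa3*, the next in abundance, was at 0.650 ± 0.0742 and 0.556 ± 0.0832 CPM (SD, n = 3 each). Dendritic cell markers summed to 2.36, 4.09 and 2.96 CPM in Ctrl and 3.55, 4.05 and 3.02 in AclyM-KO, with *Zbtb46* the only gene tested and not called, and *Ccr7* below 1 CPM. The 5 fibroblast markers summed to at most 1.30 CPM in any library, with *Col1a2* and *Col1a1* the most abundant, and none passed the filter. Among macrophage markers, *Lyz2*, the most abundant, and *Mertk* were called lower (-0.67 and -0.73, edgeR adjusted p = 5.79e-08 and 2.56e-07, neither with glmTreat), and *Cd68* was at -0.092 (edgeR adjusted p = 0.0756). Of the 8, 0 were called higher by any of the 3 tools. The list had a median of -0.15, with 7 genes below 0 and 1 above. Within the limit, *Csf1r*, the receptor gene for M-CSF (-0.20, edgeR adjusted p = 0.00366), and the integrin gene *Itgam* (-0.28, edgeR adjusted p = 0.00113) were lower, and *Adgre1*, which encodes F4/80, was higher (0.33, edgeR adjusted p = 2.27e-05).

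To place the patterns, each gene's log2 CPM was centred on its mean over the 6 libraries and the distance between profiles was taken. Nearest to *Chil4* was the aquaporin gene *Aqp1* (distance 1.19), followed by *A4galt* (1.37), a glycosyltransferase gene, *Mgam* (1.51), which encodes maltase-glucoamylase, *Mapk11* (1.92) and *Abhd15* (1.95). All 5 genes were higher in every AclyM-KO library than in every Ctrl library, which their choice by likeness to *Chil4* favours. In AclyM-KO all had fewer counts than *Chil4*. *A4galt* was at 3, 6 and 2 reads in Ctrl against 46, 56 and 42 in AclyM-KO, and *Mapk11* had 8, 6 and 8 against 39, 61 and 52. The nearest profiles to *Chil3* were those of *Mphosph10*, *Rab29* and *Commd9* (0.0857 to 0.0899), and those nearest to *Retnla* were *Araf*, *Gfus* and *Prmt6* (0.0303 to 0.0472). For *Chid1* they were *Aar2*, *Arih2* and *Tsn* (0.0333 to 0.0535), and for *Ctbs* they were *Dcaf17*, *H2-D1* and *Ccm2* (0.0366 to 0.0533). The genes nearest to *Chil4* were thus farther from it than the genes named for the other members were from theirs. No member was among the nearest profiles of another. Profiles over 6 libraries in 2 groups are a description and say nothing of shared function.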

How the data were processed

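RNA of 3 AclyM-KO and 3 Ctrl libraries of IL-4-treated BMDMs was analysed. According to the study's methods and the submitters' processing notes, the authors made strand-specific mRNA libraries and aligned the reads to mm10 with STAR 2.5.2b. The authors deposited raw read counts per RefSeq transcript, and the counting program is not given in the sources used here. Of 35745 rows, 99.67% were paired with a gene (NCBI RefSeq GRCm38.p6, then GENCODE M21), and the 117 others, with 0.370% to 1.38% of the counts of a library, were left out. The row with the most counts was kept for each of 24445 genes, because rows of a gene share reads.

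Counts were tested across all genes with edgeR 4.0.16 (R 4.3.3, filterByExpr, TMM, quasi-likelihood test, Benjamini-Hochberg adjustment). CPM uses TMM-scaled library sizes. Profiles use log2 CPM with a prior count of 2. Alternatives used DESeq2 1.42.0, limma-voom (limma 3.58.1), other scalings, filters, rows and fold change limits, a replicate term, and each library left out. The procedure was tested on simulated data.

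The members and lists were chosen with earlier results of these data known. Besides the members, their families and *Acly*, the text names called genes (at most 4 per list), the 2 most abundant genes of a list, called neighbours and the nearest profiles. *Cdh1*, *Flt1*, *Mgl2*, and other genes named in the text, among them *Stat6*, *Stab1*, *Man2b1*, *Manba*, *Nagk*, *Gnpda2*, *Egr2*, *Irf4*, *Jak3*, *Klf4*, *Clec10a*, *Csf1r*, *Itgam*, *Adgre1* and the marker genes at or near 0, were chosen after their values were seen. Some genes that this rule covers are not reported here. Within a group, the spread between libraries exceeded counting noise (chi-square per gene 2.32 to 7.57).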

Additional observations from a re-analysis of the deposited data

How the results depend on the processing

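The log2 fold changes of the 5 members that passed the filter were recomputed under 16 alternatives each, and every one stayed within 1 SD of the replicates. With each library left out in turn they ranged from 3.96 to 4.10 for *Chil4*, -0.16 to 0.051 for *Chil3*, -0.17 to -0.084 for *Retnla*, -0.012 to 0.106 for *Chid1* and 0.108 to 0.223 for *Ctbs*. The *Chil4* to *Chil3* ratio of means ranged from 15.8 to 17.8. Calls over all genes numbered 358 higher and 309 lower. They ranged from 315 to 374 and from 271 to 317 with a library left out, were 77 and 41 with edgeR's glmTreat, and were 1485 and 1511 without a fold change limit. Over the lists besides the members, 4 genes were called higher and 12 lower of 82 tested. These counts were 3 to 4 and 9 to 11 with a library left out, 2 and 5 with glmTreat, and 12 and 27 without a fold change limit. Near the members they were 0 and 1, also with a library left out, then 0 lower with glmTreat and 7 and 2 without a fold change limit. No other alternative moved these counts by more than 1.5 times.

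Replicate numbers do not mark shared mice or days in the labels, and deviations of same-numbered libraries correlated at -0.0651, 0.0498 and -0.0314. With the replicate block, *Chil4* was at 4.02, *Chil3* at -0.024 and *Retnla* at -0.12, and 350 genes were called higher and 302 lower. With glmTreat, 4 of 8 calls were left among the other IL-4 markers, 1 of 2 among the regulators, 1 of 3 among the neutrophil markers and 0 of 2 among the macrophage markers (*Lyz2* and *Mertk*), and the calls of *Cdh1* as an epithelial marker and of *Ppfia4* were lost. Under the alternatives other than glmTreat, single calls of the named genes were lost for *Il13ra1* (6 alternatives), *S100a9* (2), and *Cdh1*, *Flt1* and *Mgl2* (1 each, without Ctrl replicate 2). The depth limits *Chil1* and the family members with at most 6 counts in a library, for which a difference was not detectable.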
